A study of Homo sapiens with 6 samples.

Results

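The collagen genes were taken as every gene whose symbol on the array reads COL, a number, A and a number, and 43 of the 18404 genes measured met this rule. Collagens are secreted or membrane proteins whose chains wind into a triple helix. Each COL gene encodes 1 chain; some collagen types, such as type III, are trimers of a single chain, and others, such as types I, IV, V and VI, combine chains from different genes. The fibrillar collagens (types I, II, III, V, XI, XXIV and XXVII) form the cross-striated fibres of connective tissue, the FACIT collagens sit on the surface of those fibres, and type VI forms beaded filaments beside cells. Type IV forms the network of basement membranes, types XV and XVIII (the multiplexins) lie in the basement membrane zone, and types XIII, XXIII and XXV span the plasma membrane. Fibrillar collagen is made mainly by mesenchymal cells, whereas epithelial cells contribute to basement membranes.

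The members were compared between H69 and H69M, both human small cell lung cancer lines, with 3 arrays of total RNA from each. H69 grows in suspension and is of the classic neuroendocrine kind. The labels give no treatment, passage or culture for either line, do not say how H69M was derived, and do not say whether the arrays of a line came from separate cultures, so each p-value reflects only how these arrays varied, and that variation could be technical. Values are on the log2 scale as the authors deposited them after RMA (robust multi-array average, which corrects background, normalizes between arrays and joins the probes of each probe set into 1 value); a difference of 1 is 2-fold.

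The median of an array was 6.43 to 6.48. Across genes, arrays of the same line correlated at 0.995 to 0.998 and arrays of different lines at 0.938 to 0.950. Of all genes, 21.0% were higher in H69M and 23.2% lower by limma with a Benjamini-Hochberg adjusted p below 0.05, the rule for the counts of markers that follow. Of 16 neuroendocrine markers of small cell lung cancer, 14 were measured. Of these, 10 were lower in H69M and 1 was higher, yet their mean level was 8.83 to 9.13 on the H69M arrays, against 9.58 to 9.64 on the H69 arrays. Of 16 fibroblast markers, 10 were higher in H69M and 0 lower, and their mean level went from between 5.29 and 5.34 on the H69 arrays to between 7.52 and 7.74 on the H69M arrays. The defining markers PRRX1 (log2 fold change 5.57), FAP (3.92) and PDGFRB (3.15) were among them, and MEOX2 (-0.21), DPT (0.0084) and TCF21 (0.29) were among the 6 that missed the threshold. Of 10 endothelial markers, 4 rose and 1 fell, with a mean level of 4.97 to 5.05 in H69 and 5.26 to 5.57 in H69M. Most of that shift came from TEK, the receptor of angiopoietins (log2 fold change 3.28): without it the mean was 5.02 to 5.10 in H69 and 5.11 to 5.26 in H69M. The other endothelial markers that rose were ESAM (0.55), EMCN (0.44) and KDR (0.39). The defining markers PECAM1 (-0.14), CDH5 (-0.0090) and VWF (-0.090) did not pass, nor did ERG (0.33) and TIE1 (0.17), and CLDN5 fell by 0.53. Of 9 epithelial markers 2 rose and 6 fell, and of 7 leukocyte markers 1 rose and 3 fell. In RNA from a whole culture, fewer cells of a type and less RNA per cell cannot be told apart, and the part of cells with fibroblast markers in the collagen differences was not tested.

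The type IV genes lie in pairs whose start sites face away from each other, and in these arrays 1 chain of the first pair below rose while all 4 chains of the others fell, so the sequence between the starts is shown first. Promoter sequence was taken from RefSeq (GRCh38.p14) for the 250 bases before a start site, and 31 of the 43 members had at least 1 such window. Capitals mark the CCAAT box, the TATA box as TATAAA and the GC box as GGGCGG, each on either strand. Between the starts of COL4A1 and COL4A2 lie 126 bases (chr13:110307158-110307283, plus strand), between those of COL4A4 and COL4A3 418, and between the nearest starts of COL4A6 and COL4A5 379. For the pairs on chromosomes 2 and X the 250 bases before COL4A3 (chr2:227164374-227164623) and before COL4A5 (chrX:108439588-108439837) are given, both on the plus strand.
COL4A1/COL4A2: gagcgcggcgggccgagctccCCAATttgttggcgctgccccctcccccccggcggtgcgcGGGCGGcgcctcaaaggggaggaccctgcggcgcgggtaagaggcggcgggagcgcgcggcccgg
COL4A4/COL4A3: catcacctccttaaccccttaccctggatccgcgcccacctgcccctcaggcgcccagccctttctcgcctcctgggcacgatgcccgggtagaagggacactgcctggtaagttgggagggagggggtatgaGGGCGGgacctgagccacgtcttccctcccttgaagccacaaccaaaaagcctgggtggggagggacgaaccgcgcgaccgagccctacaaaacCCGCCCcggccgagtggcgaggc
COL4A6/COL4A5: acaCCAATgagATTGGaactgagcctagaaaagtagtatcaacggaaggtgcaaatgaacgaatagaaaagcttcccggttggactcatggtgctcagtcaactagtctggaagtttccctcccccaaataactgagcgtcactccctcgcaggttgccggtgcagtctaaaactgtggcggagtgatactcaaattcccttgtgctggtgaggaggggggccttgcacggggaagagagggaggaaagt
Next are the windows of 3 members whose level, unlike that of the type IV genes, differed by at least 2-fold. They are examples: other such members with a window, among them COL5A1 and COL12A1, are not shown. COL6A2 (chr21:46097862-46098111, plus strand) and COL11A1 (chr1:103108523-103108772, minus strand) were higher in H69M, and COL24A1 (chr1:86156773-86157022, minus strand) was lower.
COL6A2: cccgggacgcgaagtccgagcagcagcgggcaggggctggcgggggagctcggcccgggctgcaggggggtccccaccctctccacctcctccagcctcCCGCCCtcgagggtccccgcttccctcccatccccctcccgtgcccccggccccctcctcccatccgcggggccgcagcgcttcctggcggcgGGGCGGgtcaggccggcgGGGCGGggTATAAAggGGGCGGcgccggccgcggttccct
COL11A1: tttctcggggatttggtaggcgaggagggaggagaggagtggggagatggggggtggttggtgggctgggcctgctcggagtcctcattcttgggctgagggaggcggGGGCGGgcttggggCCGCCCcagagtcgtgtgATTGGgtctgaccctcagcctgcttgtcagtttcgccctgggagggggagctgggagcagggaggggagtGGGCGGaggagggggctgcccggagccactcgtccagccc
COL24A1: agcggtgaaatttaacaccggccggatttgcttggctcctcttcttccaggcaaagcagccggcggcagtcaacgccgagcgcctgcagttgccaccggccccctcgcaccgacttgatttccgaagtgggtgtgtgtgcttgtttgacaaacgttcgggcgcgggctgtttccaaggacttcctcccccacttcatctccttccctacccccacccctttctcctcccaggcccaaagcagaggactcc
The COL6A2 window held 4 GGGCGG matches and 1 TATAAA match, the COL11A1 window 3 GGGCGG and 1 CCAAT, and the COL24A1 window held 0 of the 3 motifs, although the window of another COL24A1 start had a GC box match. Over the 43 windows of collagen genes (some genes have several starts), CCAAT was found in 11, TATAAA in 7 and GGGCGG in 24. Over all 35116 windows of the table the shares were 32.0%, 10.7% and 42.6%. These matches describe letters in these windows only.

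Most collagens of the fibrils and of the beaded filaments were higher in H69M, and most type IV chains were lower. With limma and a Benjamini-Hochberg adjusted p below 0.05, 17 of the 43 members were higher in H69M (39.5%), where 21.0% of all genes were, and 8 were lower (18.6%), where 23.2% of all genes were. At least 2-fold differences passed for 12 members higher (27.9%, against 5.56% of all genes) and 1 lower (2.33%, against 2.72%). H69 and H69M arrays did not overlap for 19 members higher in H69M (25.8% of all genes) and 12 lower (30.0% of all genes). The median log2 fold change of the 43 was 0.065, and that of all genes was -0.041. By the mean of the 6 arrays, 32 members stood at or above the 25th percentile of all genes, and 33 below the median. RMA values carry no detection call, and folds of dim genes tend to come out too small. When genes with a level under the median were dropped, the counts were 7 higher and 2 lower among the 10 members that remained. That level includes the H69M arrays, so a rise in H69M can itself keep a member in. The H69 means of COL14A1 (5.06), COL1A1 (6.88), COL6A1 (6.86) and COL5A1 (6.57) were below the median of 7.16. The filter is therefore no separate check on the rises.

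**Figure D1:**
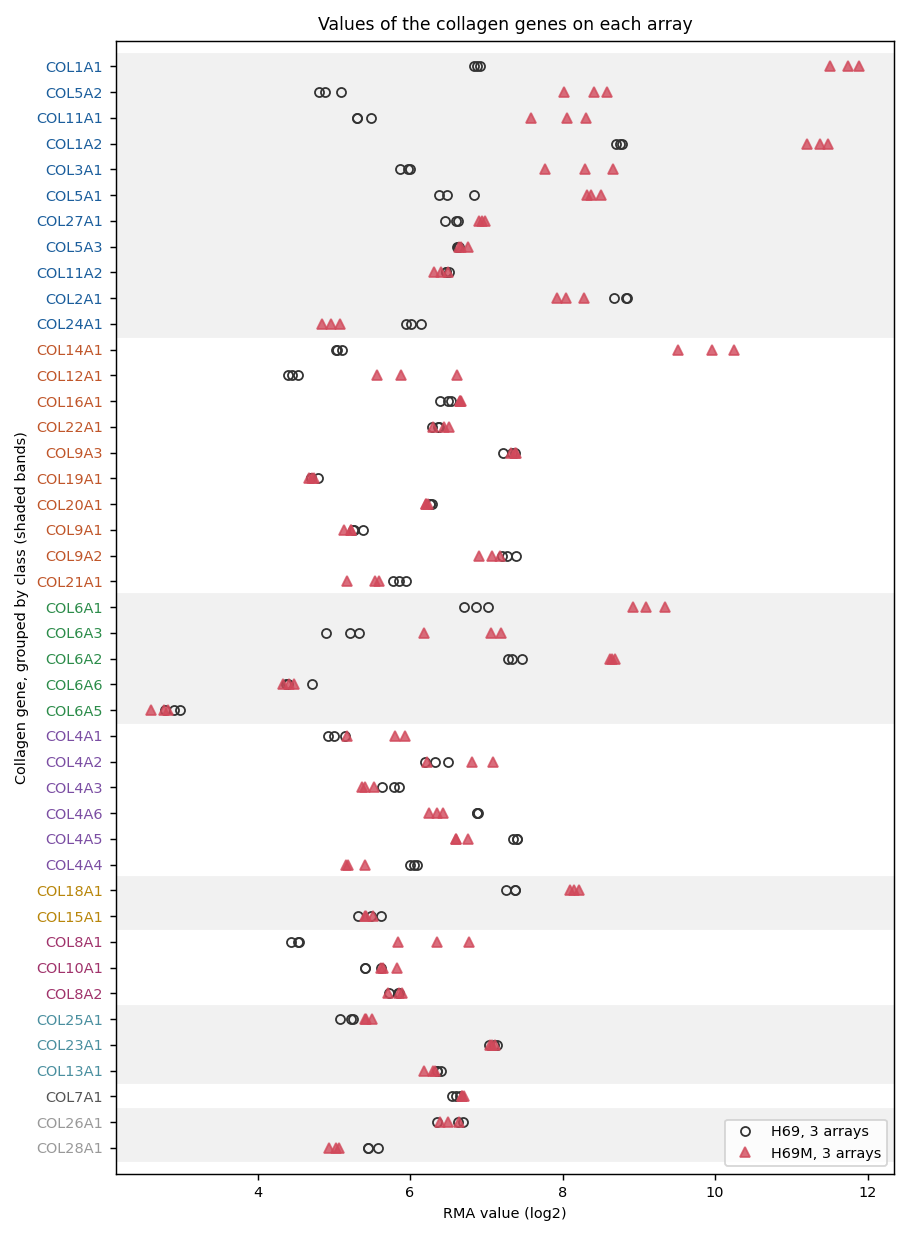
RMA values (log2) of the 43 collagen genes on each of the 6 arrays, with open circles for H69 and triangles for H69M, grouped by class in shaded and unshaded bands. The H69M arrays of COL1A1 (11.50 to 11.89) and COL14A1 (9.52 to 10.25) lie farthest from the H69 arrays of the same gene.

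Most fibrillar chains were higher in H69M. Of 11 fibrillar members, 7 rose, 2 fell and 2 did not pass, with a median log2 fold change of 1.83. COL1A1, which encodes the alpha1 chain of type I collagen, the main collagen of bone, skin and tendon (probe set 8016646), read 6.88, 6.92 and 6.84 on the H69 arrays and 11.74, 11.89 and 11.50 on the H69M arrays. All 3 H69M arrays stood far above all 3 H69 arrays, a 28.4-fold difference (log2 fold change 4.83 ± 0.097, SE; limma, Benjamini-Hochberg adjusted p = 4.71e-08). COL1A2, the alpha2 chain of the same trimer (probe set 8134263), read 8.75, 8.70 and 8.78 in H69 and 11.38, 11.48 and 11.20 in H69M. It rose by 2.61 ± 0.080 (limma adjusted p = 2.93e-07), with no overlap between the lines.

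COL3A1 encodes the only chain of type III collagen, which forms fibrils with type I in extensible tissues. It read 5.86, 6.003 and 5.97 in H69 and 8.29, 8.66 and 7.77 in H69M, a rise of 2.30 ± 0.19 (limma adjusted p = 4.38e-05). H69M replicate 3 was its lowest H69M array and still stood above every H69 array. The type V chains, which help to start fibrils and set their width, differed among themselves. COL5A2 went from 5.10, 4.89 and 4.80 to 8.01, 8.59 and 8.42, a 10.6-fold difference (3.41 ± 0.15, limma adjusted p = 1.34e-06). COL5A1 went from 6.49, 6.83 and 6.39 to 8.38, 8.51 and 8.32 (1.83 ± 0.12, limma adjusted p = 9.96e-06). The remaining type V chain, COL5A3, stayed within the H69 range on 1 H69M array, and its change of 0.065 ± 0.058 did not pass (limma adjusted p = 0.406).

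Type XI collagen is the fibril-starting counterpart of type V in cartilage, and its chain genes went different ways. COL11A1 read 5.49, 5.30 and 5.31 in H69 and 8.05, 8.31 and 7.58 in H69M, a rise of 2.61 ± 0.17 (limma adjusted p = 9.94e-06). COL11A2 overlapped between the lines (-0.082 ± 0.065, limma adjusted p = 0.350), and its other probe set gave 0.18, which did not pass either. COL2A1, which encodes the cartilage fibril chain that also serves in type XI collagen, fell from 8.84, 8.83 and 8.67 to 8.29, 8.04 and 7.93 (-0.70 ± 0.10, limma adjusted p = 0.000786). COL24A1, a fibrillar chain of developing bone, fell from 5.95, 6.02 and 6.14 to 5.08, 4.96 and 4.85. This was the only collagen at least 2-fold lower (-1.07 ± 0.082, limma adjusted p = 2.53e-05), and a filter at the 25th percentile of level removed it. The same filter removed COL8A1 and COL12A1, which rose at least 2-fold, and COL4A1, the only type IV chain that rose. COL27A1, another minor fibrillar chain, rose by 0.38 ± 0.066 (limma adjusted p = 0.00213).

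**Figure D2:**
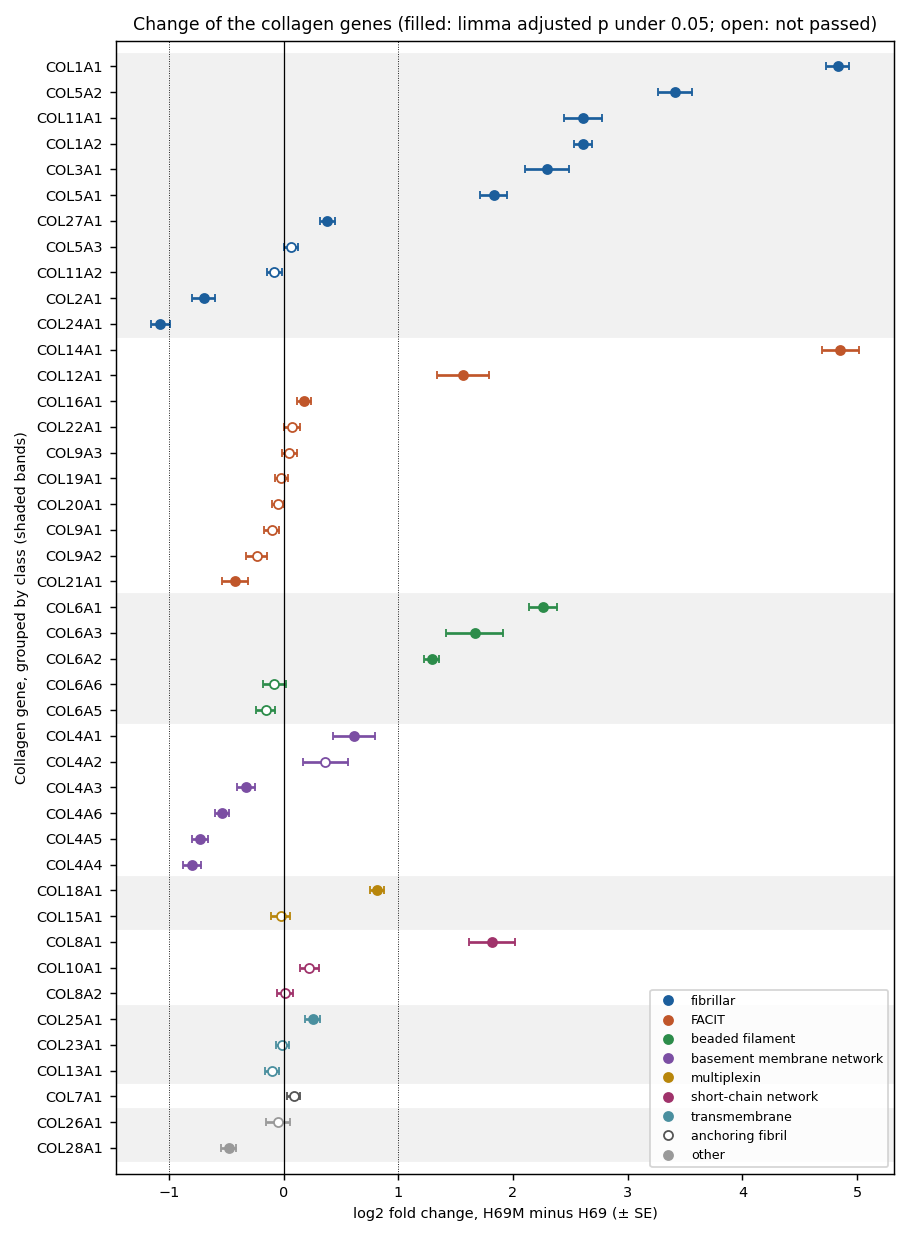
log2 fold change, H69M minus H69, of each collagen gene with its standard error (n = 3 arrays of each line), grouped and coloured by class; filled points passed limma's adjusted p threshold of 0.05, open points did not, and dotted lines mark a 2-fold difference. The 6 largest fibrillar rises lie between 1.83 and 4.83, and 4 of the 6 type IV chains lie below 0.

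The FACIT class was led by COL14A1, and most of its members did not pass. Of 10 FACIT members, 3 rose, 1 fell and 6 did not pass, with a median log2 fold change of 0.016. COL14A1 encodes the chain of type XIV collagen, which binds the surface of type I fibrils (probe set 8148070). It read 5.04, 5.11 and 5.03 in H69 and 9.97, 10.25 and 9.52 in H69M, a 28.9-fold difference (4.85 ± 0.16, limma adjusted p = 4.41e-07) and the largest log2 fold change of the 43 members. COL12A1, whose type XII collagen is the close relative of type XIV, read 4.53, 4.40 and 4.45 in H69 and 5.57, 5.88 and 6.61 in H69M (1.56 ± 0.23, limma adjusted p = 0.000857). Here H69M replicate 3 was the highest array, not the lowest. COL16A1 rose by 0.18 ± 0.060 (limma adjusted p = 0.0406), a call lost in each of the 6 fits that left out 1 array (limma adjusted p from 0.0544 to 0.115).

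COL21A1, a FACIT chain of vessel walls and other tissues, fell by 0.43 ± 0.11 (limma adjusted p = 0.0168), and the call was lost without H69 replicate 3 (limma adjusted p = 0.0611). The type IX chains belong to cartilage fibrils, where they coat type II collagen. COL9A1 (-0.11), COL9A2 (-0.24) and COL9A3 (0.051) did not pass. For COL9A2 the limma adjusted p was 0.0638 and lay between 0.0287 and 0.0452 under 4 alternatives and at 0.0302 without H69M replicate 1. COL19A1 (-0.018), COL20A1 (-0.048) and COL22A1 (0.075) did not pass.

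The main chains of type VI collagen, which links cells to the surrounding matrix, all rose. Of the 5 beaded filament members, COL6A1, COL6A2 and COL6A3 passed with at least 2-fold rises and COL6A5 (-0.16) and COL6A6 (-0.082) did not pass. COL6A1 read 6.86, 6.71 and 7.02 in H69 and 9.09, 9.35 and 8.93 in H69M (2.26 ± 0.12, limma adjusted p = 4.06e-06). COL6A2, the next protein-coding gene measured on chromosome 21, read 7.34, 7.28 and 7.46 in H69 and 8.64, 8.63 and 8.69 in H69M (1.29 ± 0.066, limma adjusted p = 3.21e-06). Its H69M arrays lay within 0.061 of each other, the narrowest spread among the 12 members that rose at least 2-fold. COL6A3 read 5.21, 5.34 and 4.90 in H69 and 7.06, 7.19 and 6.19 in H69M (1.67 ± 0.25, limma adjusted p = 0.000995), with replicate 3 well below the others.

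In the basement membrane network, COL4A1 rose, COL4A2 did not pass and the chains of the tissue-restricted trimers fell. Nearly all basement membranes hold trimers of the COL4A1 and COL4A2 chains, while the COL4A3, COL4A4, COL4A5 and COL4A6 chains are added in kidney, lung, eye and some epithelia. Of the 6 members, 1 rose, 4 fell and 1 did not pass, with a median of -0.43, and 0 differed by 2-fold. COL4A1 read 5.01, 5.14 and 4.92 in H69 and 5.80, 5.93 and 5.18 in H69M (0.61 ± 0.18, limma adjusted p = 0.0260). COL4A2, on the other side of the 126 bases shown above, read 6.20, 6.32 and 6.50 in H69 and 6.81, 7.08 and 6.22 in H69M (0.37 ± 0.20, limma adjusted p = 0.180). H69M replicate 3 lay close to the H69 arrays for both genes.

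The values of COL4A1 and COL4A2 turned on single arrays. Without H69M replicate 3, COL4A1 changed by 0.84 (limma adjusted p = 0.000265) and COL4A2 by 0.61 (limma adjusted p = 0.00505). The COL4A1 call was lost without H69 replicate 1 (limma adjusted p = 0.0681), H69 replicate 3 (0.0849), H69M replicate 1 (0.0794) or H69M replicate 2 (0.0816).

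All 4 chains of the other pairs fell, by less than 2-fold. COL4A4 read 5.998, 6.05 and 6.10 in H69 and 5.41, 5.19 and 5.16 in H69M (-0.80 ± 0.080, limma adjusted p = 0.00011), and its neighbour COL4A3 read 5.80, 5.63 and 5.86 in H69 and 5.53, 5.37 and 5.40 in H69M (-0.33 ± 0.078, limma adjusted p = 0.0102). On the X chromosome, COL4A5 read 7.40, 7.35 and 7.40 in H69 and 6.76, 6.60 and 6.60 in H69M (-0.73 ± 0.066, limma adjusted p = 6.61e-05). Its neighbour COL4A6 read 6.89, 6.88 and 6.88 in H69 and 6.44, 6.35 and 6.25 in H69M (-0.54 ± 0.064, limma adjusted p = 0.000297). The lines did not overlap for any of these 4 genes, and their calls held in each fit that left out 1 array (highest limma adjusted p 0.0394, for COL4A3).

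Of the multiplexins, COL18A1, whose product carries the endostatin fragment, rose and COL15A1 did not pass. COL18A1 read 7.38, 7.38 and 7.26 in H69 and 8.10, 8.21 and 8.15 in H69M (0.81 ± 0.063, limma adjusted p = 2.75e-05). COL15A1 overlapped between the lines (-0.025 ± 0.084, limma adjusted p = 0.841). Of the short-chain network collagens, COL8A1, a chain of the type VIII collagen of vessel walls and the cornea, read 4.44, 4.54 and 4.53 in H69 and 5.84, 6.36 and 6.77 in H69M (1.82 ± 0.20, limma adjusted p = 0.000192). COL8A2, its partner chain, changed by 0.013 ± 0.071 (limma adjusted p = 0.900). COL10A1, the collagen of hypertrophic cartilage, had 0.23 ± 0.086 (limma adjusted p = 0.0663), and its limma adjusted p lay between 0.0242 and 0.0469 under 4 alternatives and at 0.0348 without H69 replicate 1.

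The 3 transmembrane collagens analysed here, which act as adhesion molecules at the cell surface, differed little. COL25A1 rose by 0.26 ± 0.066 (limma adjusted p = 0.0144), from 5.09, 5.22 and 5.25 to 5.49, 5.42 and 5.41, and the call was lost without H69 replicate 1 (limma adjusted p = 0.0566). COL13A1 (-0.10 ± 0.063) and COL23A1 (-0.011 ± 0.057) did not pass. COL7A1, which encodes the anchoring fibrils under epithelia, read 6.60, 6.65 and 6.56 in H69 and 6.69, 6.68 and 6.71 in H69M, a small difference that did not pass (0.089 ± 0.056, limma adjusted p = 0.237). Of the remaining members, COL28A1, a minor collagen with von Willebrand factor type A domains, fell by 0.48 ± 0.067 (limma adjusted p = 0.000675) and COL26A1 (-0.047) did not pass.

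Changes were also compared within 11 pairs of members: chains that assemble together, chains whose genes are neighbours, and the multiplexins COL15A1 and COL18A1, which are separate collagens of the same class. For each pair the difference between the log2 values of both genes was taken on each array. Only its change between the lines is read, since levels of different probe sets cannot be set against each other. Folds of dim genes tend to come out too small, so changes of probe sets of unlike brightness are not on an equal footing either. In H69 the mean of COL1A1 was 6.88 and that of COL1A2 8.74. The part of brightness in the gaps was not tested. The lines did not overlap for 10 of the 11 pairs. The share for pairs of other genes was not computed. Among single genes, 25.8% did not overlap with H69M higher and 30.0% with H69M lower. COL4A1 minus COL4A2 was only just apart, with a highest value of -1.18 in H69 and a lowest of -1.16 in H69M. The exact two-sided permutation test of 3 against 3 arrays cannot go below p = 0.10, which these 10 pairs reached (0.11 after Benjamini-Hochberg adjustment over the 11). COL1A1 minus COL1A2 lay between -1.94 and -1.78 in H69 and between 0.30 and 0.41 in H69M, so COL1A1 rose by 2.22 more than COL1A2 (exact permutation p = 0.10). COL5A1 rose by 1.58 less than COL5A2, with array differences of 1.39 to 1.95 in H69 and -0.10 to 0.36 in H69M.

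Among genomic neighbours, COL5A2 rose more than COL3A1 on chromosome 2, where the difference COL3A1 minus COL5A2 lay at 0.76 to 1.17 in H69 and -0.64 to 0.28 in H69M. COL6A1 rose by 0.97 more than COL6A2. In the type IV pairs the gaps were smaller: COL4A1 rose by 0.25 more than COL4A2 changed, COL4A4 fell by more than COL4A3 with a gap of 0.47, and COL4A5 by more than COL4A6 with a gap of 0.19 in size. COL8A1 exceeded COL8A2 by 1.80, COL9A2 minus COL9A3 changed by -0.29, and COL15A1 minus COL18A1 by -0.84. COL6A1 minus COL6A3 was the pair that overlapped, at 1.37 to 2.13 in H69 and 2.03 to 2.74 in H69M (exact permutation p = 0.20).

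**Figure D3:**
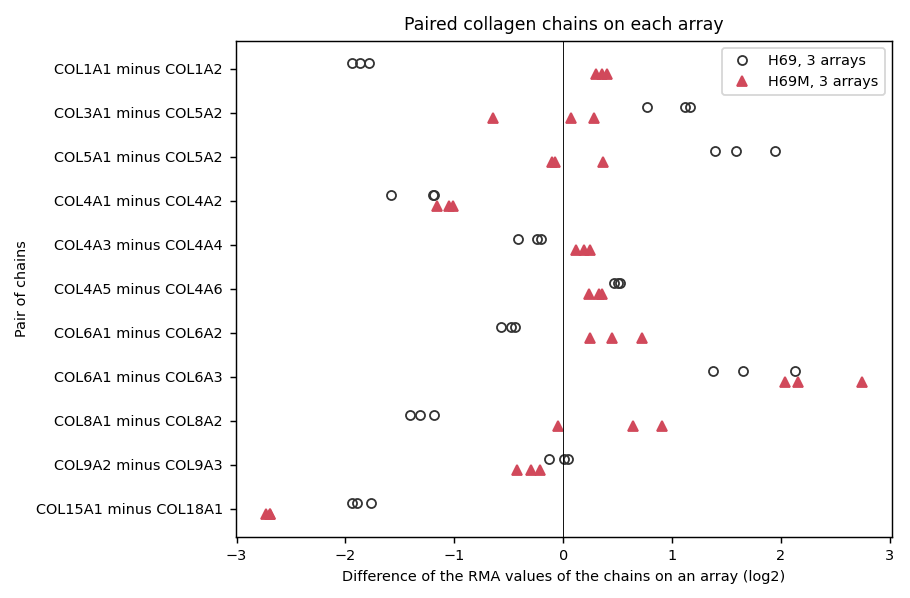
Difference between the RMA values (log2) of both genes of a pair on each array, for 11 pairs of collagen genes; open circles are H69 arrays and triangles H69M arrays. COL1A1 minus COL1A2 lies between -1.94 and -1.78 in H69 and between 0.30 and 0.41 in H69M, while the type IV pairs shift by 0.19 to 0.47 in size.

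The H69M arrays did not agree equally well for all members that rose. Among the 12 members at least 2-fold higher, the median range over the 3 H69M arrays was 0.65, against 0.16 over the 3 H69 arrays. Over all genes these medians were 0.17 and 0.15, and over the 16 fibroblast markers 0.48 and 0.21. They were not computed for all genes at least 2-fold higher, so a wide spread is not shown to be particular to collagens. H69M replicate 3 was the lowest H69M array for 8 of the 12, and replicate 2 the highest for 9. Over all 1024 genes at least 2-fold higher, replicate 3 was lowest in 25.7% and replicate 1 in 64.7%, and replicate 2 was highest in 45.1%. COL8A1 and COL12A1 had another order, with replicate 3 highest and replicate 1 lowest. The mean of the 16 fibroblast markers was 7.52, 7.74 and 7.61 on H69M replicates 1, 2 and 3, and among the endothelial markers TEK alone read 8.44, 8.58 and 6.64, the mean of the other 9 being 5.26, 5.16 and 5.11. Their part in the spread of the collagens was not tested. All 12 kept their 2-fold call in each fit that left out 1 array.

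**Figure D4:**
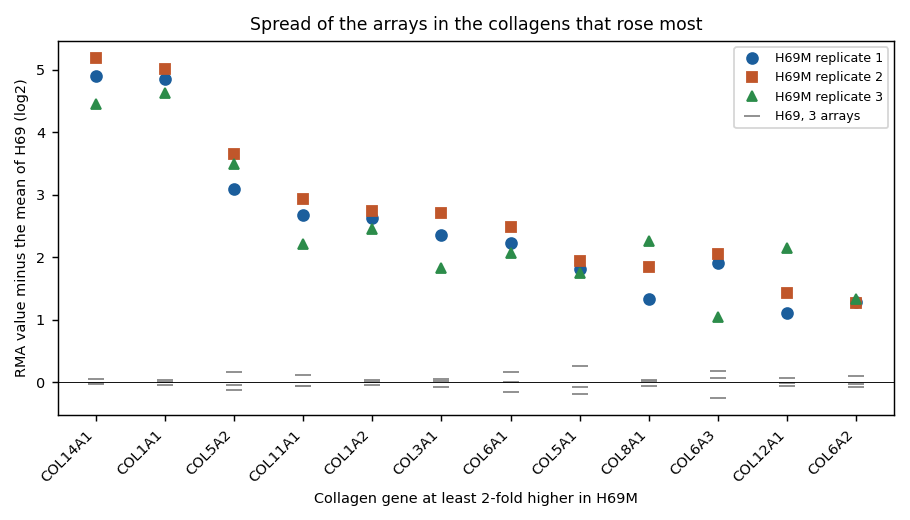
RMA value minus the mean of the H69 arrays (log2) for the 12 collagens at least 2-fold higher in H69M, with 1 symbol for each H69M replicate and grey dashes for the H69 arrays. Replicate 3 is the lowest H69M array for 8 genes and the highest for COL8A1, COL12A1 and COL6A2.

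Genes that make, process and anchor collagen were described by lists. Of 23 measured genes of collagen hydroxylation, folding and secretion, 20 rose and 1 fell (median log2 fold change 1.06). P3H2, a prolyl 3-hydroxylase, rose by 5.59 ± 0.16 (SE), SERPINH1, the collagen chaperone HSP47, by 3.59 ± 0.096, PLOD1, a lysyl hydroxylase, by 2.18 ± 0.090, and P4HA2, a subunit of prolyl 4-hydroxylase, by 2.05 ± 0.093. Of 16 genes of propeptide cleavage and cross-linking, 9 rose and 3 fell (median 0.43). The lysyl oxidase genes LOXL2 (4.29 ± 0.16) and LOX (2.82 ± 0.12) and PCOLCE, an enhancer of C-propeptide cleavage (1.95 ± 0.13), rose, while MEP1B, a meprin subunit that can trim procollagen, fell by 3.88 ± 0.15. The shares called of all genes were those given above, 21.0% higher and 23.2% lower.

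Collagen receptors were divided. Of 11 measured, 5 rose and 2 fell, with a median of -0.018. ITGA2, the alpha2 integrin subunit, rose by 3.05 ± 0.19, DDR2, a receptor tyrosine kinase for fibrillar collagen, by 2.66 ± 0.099, MRC2, an endocytic collagen receptor, by 2.20 ± 0.093, and ITGA11, the alpha11 subunit, by 1.69 ± 0.15. DDR1, the discoidin receptor of epithelial cells, had -0.043 and did not pass. Of 14 fibril-associated proteins, 7 rose and 2 fell (median 0.87). The rises were led by SPARC (7.75), FN1 (6.91), LUM (6.78) and TGFBI (6.09), and the 2 that fell were PRELP (-1.55) and FMOD (-0.91). Of 23 proteins that carry a collagen-like domain under other symbols, 5 rose, 3 fell and 15 did not pass (median -0.075). Of all genes, 21.0% were higher and 23.2% lower. The scavenger receptor genes SCARA3 (3.24) and COLEC12 (2.34) and MSR1 (1.17) rose, and GLDN, which encodes gliomedin, fell by 1.73. Other scavenger receptor genes of the list did not rise: MARCO (-0.28) fell and SCARA5 (-0.024) did not pass.

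**Figure D5:**
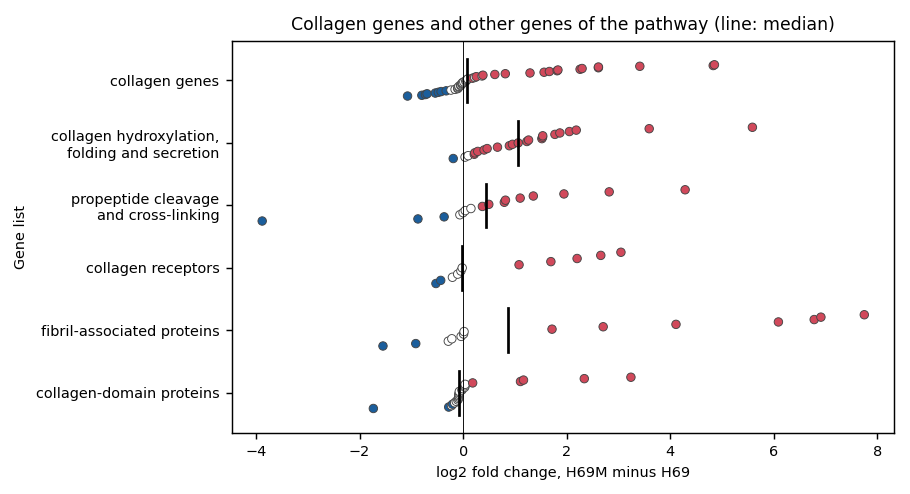
log2 fold change, H69M minus H69, of the 43 collagen genes and of the members of 5 lists of collagen pathway genes; filled points passed limma's adjusted p threshold of 0.05 (red higher, blue lower), open points did not, and the black line is the median of the list. The median of the hydroxylation, folding and secretion list lies at 1.06, and that of the collagen genes at 0.065.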

How the data were processed

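Total RNA for 6 arrays (3 of H69, 3 of H69M) was amplified and labelled by a sense-target method for Affymetrix whole-transcript arrays, per the labels' protocols. The authors deposited 1 log2 value for each probe set and array; RMA and limma are named, without versions, in the submitters' processing notes, and the genome build is not given in the sources used here. Of 32321 probe sets, 19158 had 1 gene symbol (18404 genes), 1388 several and 11775 none listed. The platform annotation named the genes, with 19128 probe sets matched to RefSeq (GRCh38.p14) by Entrez ID and 0 symbols changed. For a gene with several probe sets, the probe set that was brightest on average over the 6 arrays stood for it. COL17A1 is not analysed here.

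The lines were compared with limma 3.58.1 in R 4.3.3 (lmFit, eBayes, two-sided), with Benjamini-Hochberg adjustment over the 18404 genes and a threshold of 0.05. Python 3.11.15, pandas 2.3.3, scipy 1.17.1 and matplotlib 3.10.9 made the tables, permutation tests and plots. The standard error of a fold change had a median of 0.075 on the log2 scale, and precision is limited by the number of arrays. The code was tested on simulated data. All members were accounted for, with full values for those at least 2-fold changed or that define a class, and up to 4 of the largest changes from each pathway list. Members and lists were chosen with earlier results of these data known. The alternatives were another array scaling, filters on level, other variance models, array weights, a replicate block, other probe set rules and each array left out.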

Additional observations from a re-analysis of the deposited data

How the results depend on the processing

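Over the 16 alternatives, 363 of the 377 values of called members kept direction and call, 14 calls were lost and 0 turned. The level filters, other variance models, replicate block and probe set rules could not alter the fold change of a called member. Only array scaling, array weights and leaving out an array could have turned a direction. Without 1 array, the counts were 15 to 17 higher and 7 to 9 lower, and those at 2-fold stayed at 12 and 1. A filter at the median level kept 10 members, with 7 higher and 2 lower. At 2-fold, 6 were higher and 0 lower. Since that level includes the H69M arrays, a rise in H69M could by itself keep a member in. A filter at the 25th percentile removed COL24A1, so that 0 were at least 2-fold lower. It also removed COL8A1 and COL12A1, which left 10 at least 2-fold higher, and COL4A1. The H69 means of COL14A1 (5.06), COL5A2 (4.93), COL11A1 (5.37) and COL6A3 (5.15) were below that percentile (5.58). Their H69M values kept them in, so this filter is no separate check on the rises either. The replicate numbers share only a number: deviations of same-numbered arrays correlated at 0.0072 to 0.021, and 0 of 3 H69 arrays correlated best with their own number. The fit with the replicate number as a block gave 17 members higher and 9 lower; COL16A1 lost its call (limma adjusted p = 0.0746), while COL10A1 (0.0307) and COL9A2 (0.0313) passed.

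Members that had not passed turned sign in 20 of 267 values, none of which passed the threshold. With centred arrays COL19A1 became 0.012, COL15A1 0.0051 and COL23A1 0.019. With quantile normalization applied again COL19A1 became 0.051, COL15A1 0.015 and COL6A6 0.0025. COL11A2 became 0.051 with the mean of its probe sets and 0.18 with the lower one, and COL8A2 became -0.010 with array weights. Without 1 array, COL19A1 ranged from -0.033 to 0.011, COL6A6 from -0.14 to 0.028, COL15A1 from -0.10 to 0.047, COL26A1 from -0.15 to 0.021, COL8A2 from -0.027 to 0.066 and COL23A1 from -0.038 to 0.012. The cause was not tested. RMA values hold no measure of signal over background, so dim members cannot be called present or absent.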

Other observations

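The protein-coding genes next to the collagens were looked up in the RefSeq gene order, a description chosen after the values had been seen. The 12 members at least 2-fold higher had 20 measured neighbours that were not collagens, of which 9 were higher in H69M and 5 lower (21.0% and 23.2% of all genes were), with a median log2 fold change of 0.013. At least 2-fold differences passed for 3 of the 20 higher and 1 lower, where 5.56% and 2.72% of all genes had them. DCBLD2, a membrane protein gene beside COL8A1, stood at 6.64, CD109, another membrane protein gene beside COL12A1, at 5.77, RXRA, a retinoid receptor gene beside COL5A1, at 1.04, and DEPTOR, which encodes an mTOR inhibitor and lies beside COL14A1, at -1.64. The genes on either side of the COL6A1 and COL6A2 pair, PCBP3 (-0.013) and FTCD (-0.039), did not pass.

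The 8 members that fell had 12 such neighbours, of which 1 was higher and 3 were lower, with a median of -0.12, against the same shares of all genes. Beside COL21A1, the growth factor gene BMP5 rose by 1.78. Those that fell were ODF2L (-0.66) beside COL24A1, and C1GALT1 (-0.24) and MIOS (-0.57) on either side of COL28A1. RHBDD1 (-0.15) and MFF (-0.016) beside COL4A3 and COL4A4, and ATG4A (-0.14) and IRS4 (-0.12) beside COL4A5 and COL4A6, did not pass. A probe set annotated to both PNLIP and COL1A2, which the rule left out, had -0.051 and did not pass.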
